A study of Rattus norvegicus with 28 samples.

Results

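Ex-4 and FSK were compared directly after 1 h in WT INS-1 cells. INS-1 is an insulin-secreting cell line from a rat insulinoma. Exendin-4 (Ex-4) is an agonist of the GLP-1 receptor and was used at 10 nM. Forskolin (FSK) activates adenylyl cyclase directly and was used at 10 µM. The comparison rests on 4 of the 28 libraries of the series, namely 2 of WT cells after 1 h of Ex-4 and 2 of WT cells after 1 h of FSK, chosen by genotype, agent and hour alone. Beside them stand 2 libraries of untreated WT cells (CON), the same agents in Med14 S983A cells at 1 h (2 libraries each, with 2 of their own CON), and WT cells after 8 and 16 h (2 libraries each). Med14 S983A is a knock-in that puts an alanine in place of a serine of Med14, which belongs to Mediator, a coactivator complex bound by RNA polymerase II. In all groups the cells were moved to medium without serum before treatment. Each agent was given at a single dose, so a difference between the agents and a difference in the strength of their doses cannot be told apart.

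The GLP-1 receptor couples to Gs, which activates adenylyl cyclase. The cyclic AMP (cAMP) that follows releases the catalytic subunits of protein kinase A (PKA), and PKA phosphorylates the transcription factor CREB, while its coactivators of the CRTC family enter the nucleus. FSK enters this pathway at the cyclase, below the receptor. CREB targets include immediate early genes, which are transcribed within minutes without new protein synthesis, and genes that dampen the signal.

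FSK gave the larger response in nearly all genes that separated the agents. Of 10275 genes tested, 117 were lower with Ex-4 than with FSK (1.14% of genes) and 67 were higher (0.652%), or 184 in all (1.79%). A gene was called where the fold change was above 1.5 and the adjusted p of limma's test on log2(TPM + 1) was under 0.05, where TPM is the number of transcripts of a gene per 1e6 transcripts. Against CON, Ex-4 changed 2.87% of genes (1.75% higher and 1.12% lower) and FSK 7.47% (2.53% higher and 4.94% lower). The FSK mean lay above the CON mean in 117 of the 117 lower genes, and the Ex-4 mean did so in 114 of them. In the 67 higher genes the FSK mean lay below CON in 67 and the Ex-4 mean in 62. Most genes lay below CON with either agent. Of all genes tested, only 22.2% had a log2 difference from CON above 0 with FSK and 27.9% with Ex-4. The lower genes differed by more, with a median log2 difference of −0.95 against 0.71 in the higher genes. At least 2-fold differences were seen in 54 lower and 4 higher genes, and at least 4-fold differences in 8 lower and 0 higher genes. The 2 Ex-4 and 2 FSK libraries did not overlap in any of the 184 called genes, but they also did not overlap in 54.7% of all genes tested. The median log2 difference over all genes was 0.04. Without the fold minimum the balance turned on the TPM scale, with 1029 genes higher and 339 lower. On that scale 73.1% of all genes lay above 0. With the fold minimum, median-centring gave 49 higher and 131 lower genes, and ERCC scaling 53 and 131. The median of all genes was then −0.02 and −0.01. Counts without the fold minimum were not made under these scalings.

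**Figure D1:**
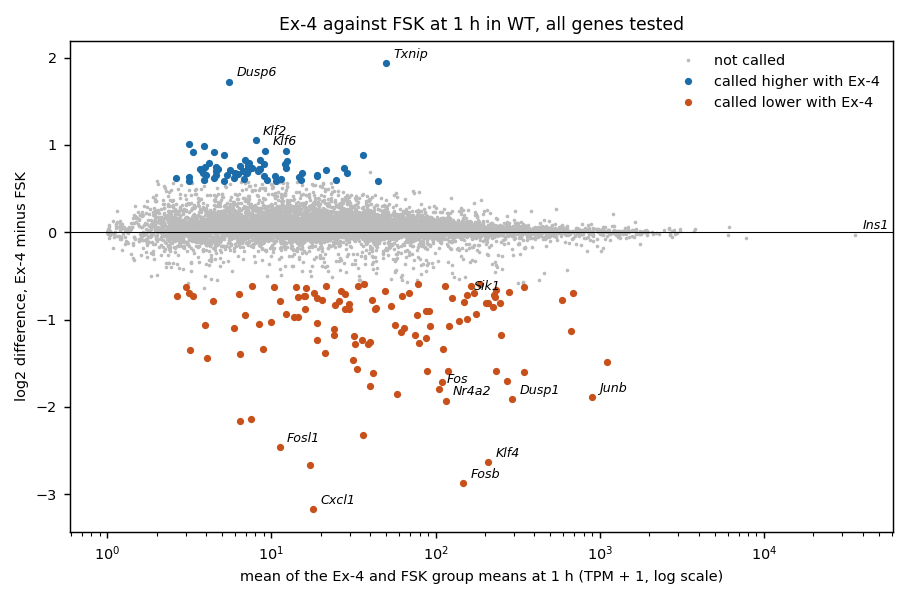
Log2 difference of Ex-4 minus FSK at 1 h in WT (vertical axis, log2(TPM + 1) scale) against the mean of both groups (horizontal axis, TPM + 1, log scale) for each of 10275 genes. Orange points are the 117 genes called lower with Ex-4 and blue points the 67 called higher; the lower genes reach −3.17 (Cxcl1) and the higher genes 1.94 (Txnip).

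The 4 libraries held 43140960 to 55285755 fragments, and the added ERCC spike-in transcripts took 0.853% to 0.938% of them. The TPM columns were matched by the genotype, agent, hour and replicate in their names, since the library numbers in those names go against the library numbers in the labels. The numbers would exchange Ex-4 and FSK at 1 h in WT, so each direction below rests on the written names. Replicates of both groups differed by more than counting noise (chi-square per degree of freedom 3.55 for Ex-4 and 3.64 for FSK). The study's methods call the replicates biological, while the labels do not say whether they came from separate cultures. The p-values therefore measure the spread between replicate libraries, pooled over the 14 groups of the fit. Of 15 beta cell markers, the 13 in the table all reached 1 TPM, and Ins1 alone had a mean of 36104 TPM. Of 4 delta cell, 1 PP cell and 6 immune cell markers, 0 reached 1 TPM. That level was reached by 2 of 12 acinar, 1 of 5 endothelial, 1 of 6 fibroblast and 3 of 7 alpha cell markers. Of 5 duct markers, 3 were in the table and 1 reached it. Some markers of these other cell types lay far above 1 TPM. The alpha cell markers Gc and Gcg had means of 1141 and 181 TPM over the 4 libraries, and the endothelial marker Esam 57 TPM.

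In the list of the GLP-1 receptor, G proteins and adenylyl cyclases, 0 of 12 genes tested were called, with log2 differences between −0.06 and 0.13. Over all genes tested 1.79% were called, so a count of 0 in lists this short, here and below, says little about them. The receptor gene Glp1r (NM_012728) had 85.3 and 84.6 TPM with Ex-4, 86.7 and 84.2 TPM with FSK, and 95.4 and 89.8 TPM in CON. Its libraries overlapped between the agents, and the 95% interval of the log2 difference was −0.09 to 0.07. Gnas, which encodes the Gs alpha subunit, had 3775 and 3878 TPM with Ex-4 against 3656 and 3831 TPM with FSK. In the list of PKA subunits, inhibitors and anchoring proteins and of Epac, a second cAMP sensor, 0 of 13 were called. The values ran from −0.29 for the anchoring protein Akap12 to 0.23 for the catalytic subunit Prkacb. Of 17 cyclic nucleotide phosphodiesterases, which break cAMP and cGMP down, 1 was called higher and 0 lower. This was Pde4b (NM_017031), with 3.19 and 3.496 TPM with Ex-4, 1.45 and 1.14 TPM with FSK, and 3.02 and 2.38 TPM in CON. Its FSK libraries lay under those of both other groups, while Ex-4 was not called against CON (log2 difference 0.24). In Med14 S983A it had 6.98 and 6.46 TPM with Ex-4, 2.14 and 2.24 TPM with FSK, and 3.49 and 3.40 TPM in CON. Pde10a, a phosphodiesterase of both cAMP and cGMP, had a log2 difference of 0.19 between the agents at 1 h (adjusted p 0.16).

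Among CREB, CREM, CRTC and salt-inducible kinase genes, 2 of 8 tested were called, both lower with Ex-4. Crem (NM_001271102), whose short products repress CREB targets, had 11.7 and 10.6 TPM in CON, 172 and 186 TPM with Ex-4, and 289.8 and 276 TPM with FSK. Sik1 (NM_021693), a kinase that keeps CRTC proteins out of the nucleus, had 3.91 and 3.93 TPM in CON, 116 and 115 TPM with Ex-4, and 201 and 183 TPM with FSK. Both genes rose with either agent and did not overlap between agents. Ex-4 stood 4.57 above CON for Sik1 on the log2 scale and FSK 5.29. The differences between agents were small beside these rises, at −0.66 for Crem (SE 0.08, adjusted p 1.5e-06) and −0.72 for Sik1 (SE 0.10, adjusted p 7.4e-06). Creb1 and Crtc2 had differences of 0.19 and 0.05 and were not called. Irs2, a docking protein of the insulin receptor and a CREB target, was raised by both agents and differed little between them. It had 150.1 and 157 TPM with Ex-4 and 196 and 189.6 TPM with FSK, against 39.2 and 36.8 TPM in CON. Its difference of −0.33 (adjusted p 8.6e-05) had a 95% interval of −0.44 to −0.21, inside 1.5-fold.

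The AP-1 family was the list with the lowest median. AP-1 is a dimer of Fos and Jun proteins or their relatives, and most of its genes are immediate early genes. Of 13 members tested, 9 were lower with Ex-4 and 0 higher, with a median log2 difference of −1.59 against 0.04 over all genes. Over all genes tested 1.14% were lower and 0.652% higher, which are the shares to set beside the list counts here and below. The lists were chosen with earlier results of these data known, so such counts are a description only. Fosb (NM_001256509, rn6 chromosome 1, 80214691 to 80221417) had 0.306 and 0.283 TPM in CON, 31.8 and 36.8 TPM with Ex-4, and 253 and 262 TPM with FSK. Its FSK mean was 7.51 times its Ex-4 mean, and the log2 difference was −2.88 (SE 0.08, adjusted p 3.5e-18). Fosl1 (NM_012953) was listed at 0 and at 0.104 TPM in CON and reached 2.07 and 2.89 TPM with Ex-4 and 17.9 and 18.2 TPM with FSK. Each of these genes rose with either agent, and every FSK library lay above every Ex-4 library.

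Fos (NM_022197, rn6 chromosome 6, 109300433 to 109303299) had 2.16 and 1.91 TPM in CON, 45.1 and 47.1 TPM with Ex-4, and 161 and 163 TPM with FSK. Its log2 difference between the agents was −1.79 (SE 0.10, adjusted p 1.4e-12). Junb (NM_021836) was the most abundant gene of the list, with 22.4 and 22.1 TPM in CON, 380.4 and 379.8 TPM with Ex-4, and 1398 and 1427 TPM with FSK. The steps differed among members. Fosl2 stood 5.28 above CON with Ex-4 and 6.87 with FSK on the log2 scale, while Jun stood 0.97 above CON with Ex-4 and 2.74 with FSK. Their differences between the agents were close, at −1.59 and −1.76. In TPM, the Fosl2 mean was 2.00 in CON, 115 with Ex-4 and 349 with FSK. Atf3 and Maff had differences of −1.61 and −1.27 between the agents. Jund differed least among the called members (−0.63) and fell under 1.5-fold without replicate 1 of Ex-4 (−0.56).

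**Figure D2:**
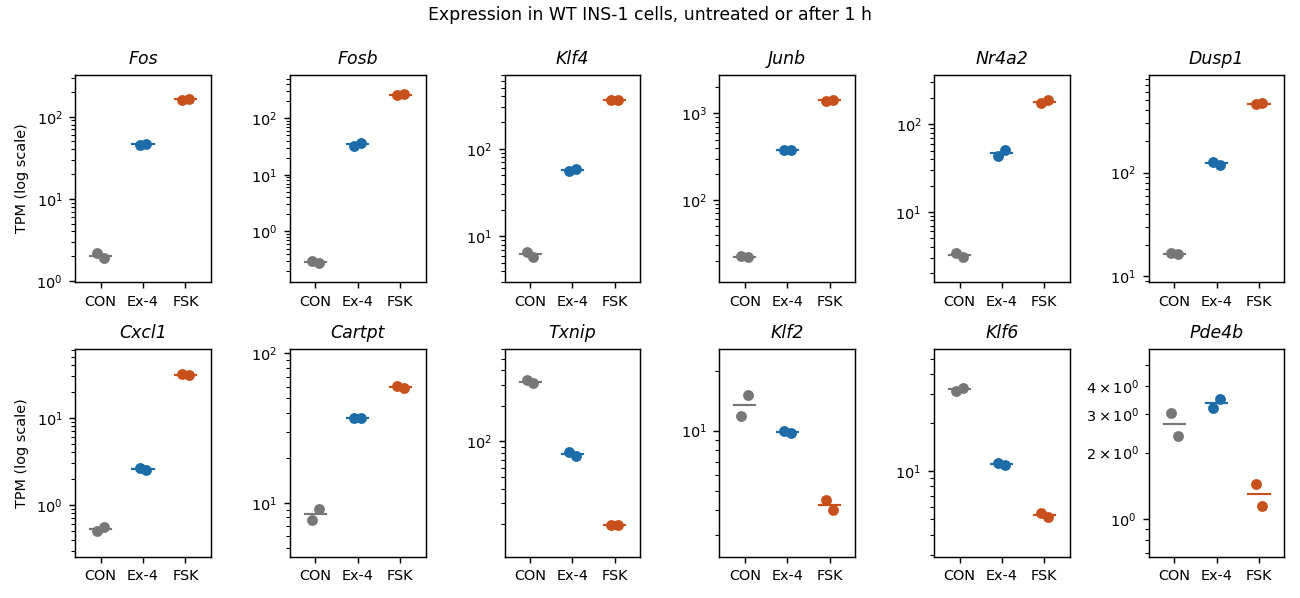
TPM (vertical axes, log scale) of 12 genes in WT libraries, untreated (CON, grey) or after 1 h of Ex-4 (blue) or FSK (orange); points are the 2 libraries of a group and bars their mean. In the 8 genes from Fos to Cartpt FSK lies above Ex-4 and Ex-4 above CON, while Txnip, Klf2 and Klf6 run the other way and Pde4b is below CON with FSK but not with Ex-4.

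In the list of NR4A, EGR and other immediate early genes, 13 of 18 tested were lower with Ex-4 and 1 was higher, with a median of −1.03. The NR4A genes encode orphan nuclear receptors. Nr4a2 (NM_019328) had 3.43 and 3.09 TPM in CON, 43.4 and 50.5 TPM with Ex-4, and 175 and 188 TPM with FSK. The difference was −1.93 (SE 0.09, adjusted p 1.4e-14), with no overlap. Nr4a1 reached 532 and 632 TPM with Ex-4 and 1578 and 1671 TPM with FSK, a difference of −1.48, and Nr4a3 differed by −1.09. Egr1 and Egr4, zinc finger factors of the same early wave, differed by −0.90 and −0.97. Npas4, a factor best known from neurons with calcium influx, had 0.578 and 0.531 TPM in CON, 1.23 and 1.48 TPM with Ex-4 and 9.60 and 9.45 TPM with FSK, so that the FSK mean was 7.04 times the Ex-4 mean. Arc, a synaptic immediate early gene, likewise had 11.01 and 11.2 TPM in CON, 15.5 and 15.7 TPM with Ex-4, and 45.2 and 44.7 TPM with FSK. Its Ex-4 level was not called against CON (log2 difference 0.46). The other lower genes of the list were Csrnp1, Gem, Btg2, Ier2, Btg1 and Maff, with differences of −1.56, −1.33, −1.13, −0.76, −0.70 and −1.27. Maff is also counted in the AP-1 list. The exception was Ier5, which fell with both agents and was higher with Ex-4 (10.3 and 10.3 TPM against 5.62 and 5.598 TPM with FSK, and 17.03 and 18.8 TPM in CON).

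Feedback genes of other pathways moved in both directions. Rgs2, a GTPase-activating protein that limits signalling of G proteins, was the only one of 18 RGS, GRK and arrestin genes that was called. It had 8.74 and 8.08 TPM in CON, 165 and 176 TPM with Ex-4, and 528 and 512 TPM with FSK, a difference of −1.60 (SE 0.08, adjusted p 8.7e-14). Among 19 MAP kinase phosphatases and ERK feedback genes, 2 were lower and 2 higher. Dusp1 (NM_053769), a nuclear phosphatase of MAP kinases, had 16.6 and 16.5 TPM in CON, 126 and 119 TPM with Ex-4, and 459.7 and 465 TPM with FSK. Dusp6 (NM_053883), a cytoplasmic phosphatase of ERK that follows ERK activity, went the other way, with 8.94 and 8.69 TPM in CON, 8.12 and 6.84 TPM with Ex-4, and 1.75 and 1.38 TPM with FSK. Dusp6 fell with FSK by 1.94 on the log2 scale and was not called against CON with Ex-4 (−0.22), which left a difference of 1.73 between the agents (SE 0.09, adjusted p 1.7e-13). Spry1, an inhibitor of receptor tyrosine kinase signalling, was lower with Ex-4 (−1.28), and Phlda1 was higher (0.72).

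Kruppel-like factors were split as well. Of 31 Kruppel-like, CEBP, MYC and clock factors, 5 were lower with Ex-4 and 3 higher. Klf4 (NM_053713) had 6.58 and 5.82 TPM in CON, 55.9 and 58.1 TPM with Ex-4, and 357 and 359 TPM with FSK (log2 difference −2.63, SE 0.08, adjusted p 3.8e-18). Klf6, Klf10 and Klf2 fell with FSK instead. Klf6 had 31.6 and 32.8 TPM in CON, 11.2 and 10.8 TPM with Ex-4, and 5.46 and 5.13 TPM with FSK, a difference of 0.93 (SE 0.06, adjusted p 3.8e-11). Klf10 and Klf2 differed by 0.88 and 1.05. The lower genes also included the clock factors Cry2 (−0.72), Nfil3 (−0.94) and Ciart (−0.64), and Cebpb (−0.62), whose call was lost without replicate 1 of Ex-4 (−0.44) or replicate 2 of FSK (−0.57).

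Secreted peptides and granins held 4 lower genes among 17 tested and 0 higher. Cxcl1 (NM_030845, rn6 chromosome 14, 18743678 to 18745457), a chemokine, had the lowest value of all genes tested. It had 0.501 and 0.560 TPM in CON, 2.62 and 2.53 TPM with Ex-4, and 31.4 and 31.1 TPM with FSK, and the log2 difference was −3.17 (SE 0.11, adjusted p 2.5e-16). The neuropeptide precursor Tac1 had 22.5 and 26.4 TPM with Ex-4, 90.9 and 90.3 TPM with FSK, and 8.40 and 7.62 TPM in CON. Penk, the enkephalin precursor, differed by −1.44 and was not called with Ex-4 against CON (0.40). Cartpt, a peptide precursor made in islets, differed by −0.68. Insulin was not called. Ins1 had 36571 and 34917 TPM with Ex-4 and 35900 and 37026 TPM with FSK, and the interval of the difference was −0.15 to 0.09. Ins1 and Ins2 have nearly the same sequence, so the split of reads between them is uncertain.

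The largest difference in favour of Ex-4 was that of Txnip (NM_001008767, rn6 chromosome 2, 198683168 to 198686968), a thioredoxin-binding protein that rises with glucose in beta cells. It had 329 and 312 TPM in CON, 80.8 and 75.4 TPM with Ex-4, and 19.7 and 19.5 TPM with FSK. Both agents lowered it, and no library of one agent overlapped with those of the other. The Ex-4 mean was 3.98 times the FSK mean (log2 difference 1.94, SE 0.08, adjusted p 7.3e-15). It was the only called gene among 21 of insulin signalling and glucose handling. Other stress genes included Ddit4, an inhibitor of mTORC1 (−1.58), Gadd45b (−1.27), Gadd45g (−1.18) and Bbc3, a BH3-only protein (0.60). The call of Bbc3 was lost after centring each library on its median (0.54), with ERCC scaling (0.54) and without replicate 2 of Ex-4 (0.56) or replicate 1 of FSK (0.51). Of 15 TNF and NF-kB inducible genes, Zfp36 and Nfkbiz were lower (−0.83 and −0.69) and Socs1 higher (0.99). The call of Nfkbiz was lost without replicate 1 of Ex-4 (−0.58). Among 17 feedback targets of BMP, TGF-beta, Notch and Wnt, Id2 was lower (−0.88). None of 16 beta cell identity factors, 27 ion channel genes, 25 cholesterol genes and 30 Mediator subunits was called. Over all genes tested 1.79% were called, so counts of 0 in lists of this size carry little information. The log2 differences of these list members lay between −0.51 and 0.47. Pdx1, a beta cell identity factor, had 314.5 and 303 TPM with Ex-4 and 342 and 335 TPM with FSK, a difference of −0.13 (adjusted p 0.024) that was far under 1.5-fold. Med14 had a difference of 0.04 and an interval of −0.11 to 0.18.

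**Figure D3:**
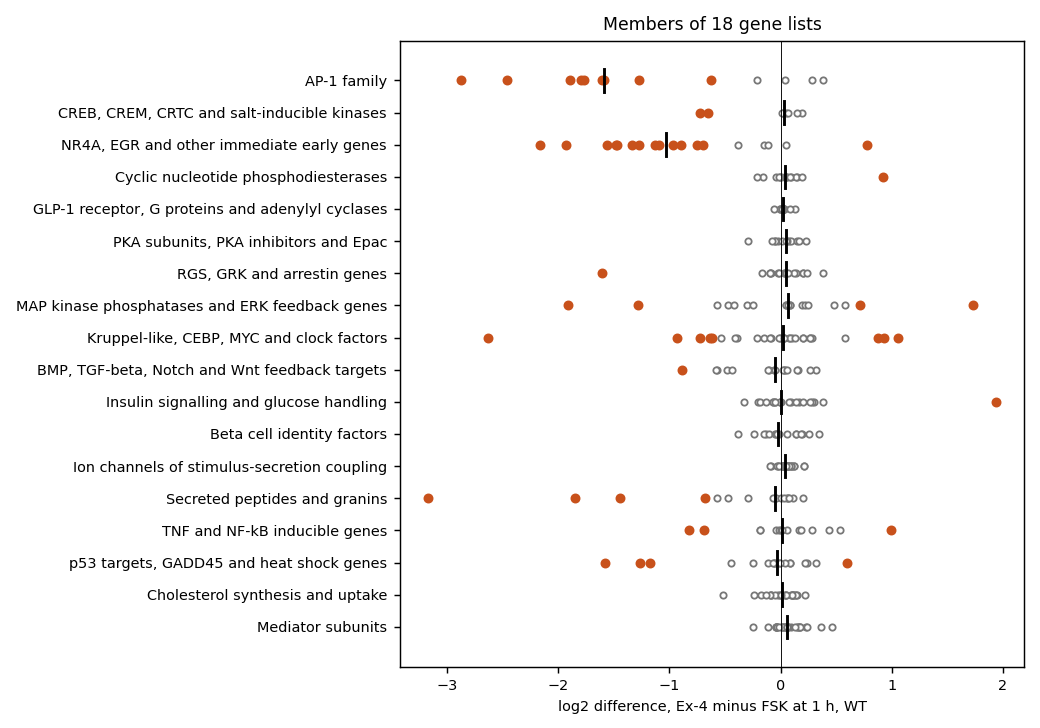
Log2 difference of Ex-4 minus FSK at 1 h in WT (horizontal axis) for the tested members of 18 gene lists (rows). Filled points are called genes, open points are not called, and black bars are the list medians, which lie at −1.59 for AP-1 and −1.03 for NR4A, EGR and other immediate early genes and within 0.07 of 0 for the others.

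Outside the lists and at 5 TPM or more on average, the largest differences with FSK above Ex-4 were those of Lnc056, a non-coding RNA (−2.67), Tent5b, a poly(A) polymerase (−2.32), and Rasl11a, a small GTPase of the Ras family (−2.14). Rasl11a had 1.45 and 2.18 TPM with Ex-4 and 10.6 and 12.04 TPM with FSK. Its Ex-4 level was not called against CON (0.44). Averaged across the 4 libraries, 42 of the 67 higher genes and 108 of the 117 lower genes had 5 TPM or more, but in CON the median level was 12.1 TPM for the higher and 8.39 TPM for the lower genes. Among higher genes with 5 TPM or more, the largest differences outside the lists were those of Ddx28 (0.94), Alkbh4 (0.83), Rbak (0.82), Mgme1 (0.82), Rnf186 (0.79), Ap5b1 (0.78) and Zfp111 (0.77). Ddx28, a mitochondrial helicase, had 19.1 and 18.4 TPM in CON, 15.6 and 14.6 TPM with Ex-4, and 7.32 and 7.49 TPM with FSK. Each of these but Rnf186 was below CON with both agents.

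Some symbol prefixes of zinc finger genes were frequent among the higher genes. Symbols beginning with Zfp, Zbtb, Zkscan, Zscan, Znf or Klf, a grouping made after the values were seen, made up 17 of the 67 higher genes (25.4%), 5 of the 117 lower genes (4.27%) and 209 of all genes tested (2.03%). The median log2 difference over the 209 was 0.19. The prefixes leave out other zinc finger genes, such as Egr1 and Egr4 among the lower genes. Called genes of both directions were short. The median span from start to end of the gene was 6369 bases in the higher genes, 4642 bases in the lower genes and 20782 bases over all genes tested. The median exon length was 2162, 1805 and 2142 bases.

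The precursors of 2 microRNAs with the same seed were among the lower genes, named here after their values were seen. Mir132 (rn6 chromosome 10, 62014995 to 62015095) had 0.211 and 0.173 TPM in CON, 11.8 and 8.94 TPM with Ex-4, and 29.6 and 21.8 TPM with FSK. Mir212 (rn6 chromosome 10, 62014702 to 62014812) had 0.384 TPM and 0 in CON, 2.14 and 2.90 TPM with Ex-4, and 10.3 and 6.51 TPM with FSK. The differences were −1.23 (SE 0.21, adjusted p 0.00017) and −1.39 (SE 0.23, adjusted p 6.7e-05). The rows are 100 and 110 bases long, so these libraries measure longer transcripts that cover the hairpins and not the mature microRNAs. The mature sequences from RefSeq (GRCr8), with bases 2 to 8, the seed, in capitals, are shown because both carry the same seed.
rno-miR-132-3p: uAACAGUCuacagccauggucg
rno-miR-212-3p: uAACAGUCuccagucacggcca

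Promoters were taken from RefSeq (GRCr8), as the 250 bases before and 50 bases after each listed start. They were searched on both strands for the cAMP response element TGACGTCA, its part TGACG, the AP-1 site TGANTCA and the E-box CACGTG. The part TGACG lies inside the whole element, so their matches overlap. Of the genes tested, 8467 had a promoter in the table, of which 3.48% held TGACGTCA, 34.4% TGACG, 4.77% TGANTCA and 9.92% CACGTG. A promoter was at hand for 52 of the 67 higher and 92 of the 117 lower genes, or 77.6% and 78.6%, under the 80% set for such a comparison, so the comparison of motif shares between these genes and all genes is void. As examples, the 150 bases before the start are shown for the genes described here whose stretch held TGACGTCA (in capitals). Since the motif chose them, their number carries no information.
Dusp1, lower with Ex-4, chr10:17184703-17184852, plus strand: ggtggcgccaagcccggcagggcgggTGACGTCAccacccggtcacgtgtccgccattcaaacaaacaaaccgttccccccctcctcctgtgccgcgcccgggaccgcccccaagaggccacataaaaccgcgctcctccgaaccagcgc
Maff, lower with Ex-4, chr7:112792637-112792786, plus strand: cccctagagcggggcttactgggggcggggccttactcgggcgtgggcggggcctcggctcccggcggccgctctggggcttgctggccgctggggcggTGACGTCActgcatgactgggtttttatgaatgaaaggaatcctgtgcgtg
Crem, lower with Ex-4, the second of 3 listed starts, chr17:58984647-58984796, plus strand: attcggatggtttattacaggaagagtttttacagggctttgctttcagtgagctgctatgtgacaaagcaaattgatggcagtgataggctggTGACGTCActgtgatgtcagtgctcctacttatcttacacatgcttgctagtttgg
Ier2, lower with Ex-4, chr19:40399223-40399372, plus strand: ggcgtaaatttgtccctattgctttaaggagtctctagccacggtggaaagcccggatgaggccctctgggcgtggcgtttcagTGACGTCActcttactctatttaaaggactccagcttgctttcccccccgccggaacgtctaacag
Cartpt, lower with Ex-4, chr2:32991236-32991385, minus strand: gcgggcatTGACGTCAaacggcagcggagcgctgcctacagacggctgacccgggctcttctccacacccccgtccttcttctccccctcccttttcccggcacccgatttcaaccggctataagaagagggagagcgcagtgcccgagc
Ddx28, higher with Ex-4, chr19:50821574-50821723, minus strand: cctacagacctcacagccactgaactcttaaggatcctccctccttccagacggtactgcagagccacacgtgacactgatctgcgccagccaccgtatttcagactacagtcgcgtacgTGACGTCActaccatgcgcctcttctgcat
In these 6 genes the element starts 124, 51, 56, 66, 142 and 30 bases before the listed start, in the order shown. These genes differed by −1.91, −1.27, −0.66, −0.76, −0.68 and 0.94 between the agents.

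The Med14 S983A libraries share none with WT and gave a second measurement of the same contrast. There, 311 genes were called (3.03%), with Ex-4 above FSK in 149 (1.45%) and below it in 162 (1.58%). Of the 117 genes lower in WT, 115 had the same sign in Med14 S983A and 98 were called the same way, and 0 were called the opposite way. Of the 67 higher genes, 66 had the same sign and 55 were called the same way, again with 0 the opposite way. Over all genes tested, 78.3% were above 0 in that contrast. The balance of calls in Med14 S983A depended on the scaling, which gave 93 above and 196 below FSK when each library was centred on its median, but 432 above and 113 below when ERCC set the scale. The median of all genes moved from 0.08 to −0.02 and 0.27. The ERCC share was 1.03% in replicate 1 and 0.886% in replicate 2 of Med14 S983A FSK, against 0.786% and 0.864% with Ex-4. Its part in the ERCC-scaled counts was not tested. Fosb had 18.7 and 20.3 TPM with Ex-4 and 208 and 211 TPM with FSK in Med14 S983A, and Fos 23.1 and 28.1 TPM against 112 and 105 TPM. Both orders were those of WT, with differences of −3.36 and −2.04. The difference itself was called as unequal in the genotypes for 44 genes (0.428%). The study's methods derive the mutant cells from edited clones and mention more than a single independently made line, but the labels do not say which line a library came from, so the effects of the substitution and of the line cannot be told apart here.

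**Figure D4:**
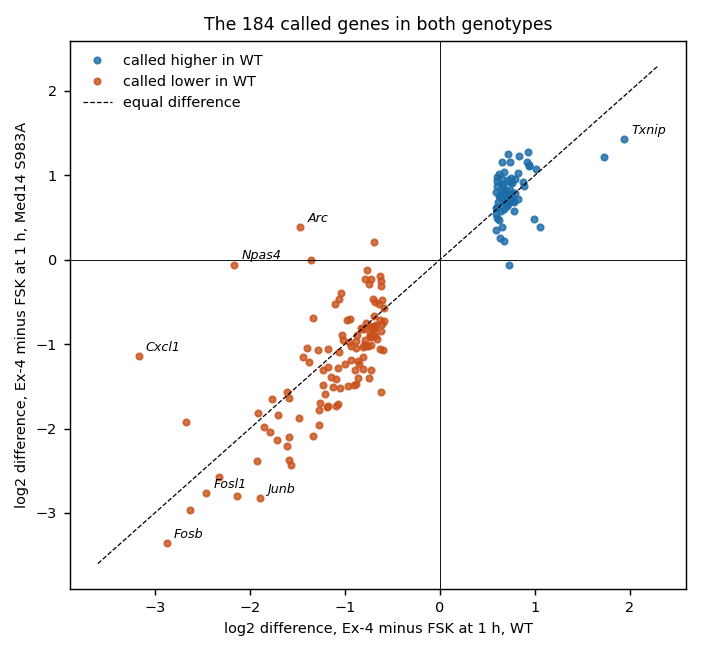
Log2 difference of Ex-4 minus FSK at 1 h in WT (horizontal axis) and in Med14 S983A (vertical axis) for the 184 genes called in WT; the dashed line marks equal differences. Most points lie near the line in the lower left (117 lower genes) and upper right (67 higher genes), while Npas4 and Arc lie near or above 0 in Med14 S983A.

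Med14 S983A also gave a choice of responsive genes whose differences used no library of the WT contrast. The spread behind the calls and the filter on mean TPM came from all 28 libraries, those of WT included. Against CON, Ex-4 changed 3.04% of all genes there (2.03% raised and 1.00% lowered) and FSK 10.4% (3.19% raised and 7.20% lowered). Both agents raised 194 genes, and in WT 85 of these were lower with Ex-4 than with FSK and 0 were higher. Over all genes tested 1.14% were lower and 0.652% higher in that WT contrast. Counts of 0 in groups of this size therefore carry little information. The median log2 difference of the 194 genes in WT was −0.51, against 0.04 over all genes, and 180 of the 194 lay below 0. Both agents lowered 100 genes in Med14 S983A, of which 21 were higher with Ex-4 in WT and 0 lower, with a median of 0.38 and 92 above 0. Both sign counts are to be read against all genes tested, of which 73.1% lay above 0 in that WT contrast. Not every gene raised by both agents separated them. Of the 109 genes of the first group that were not called in WT, 86 had a 95% interval inside 1.5-fold in either direction. The 109 were picked by the same values, which favours such intervals, so this count is a description only.

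The differences between the agents were followed to 8 and 16 h in WT. Of the 117 lower genes, 69 were also called lower at 8 h and 65 at 16 h, with 0 and 2 called the opposite way. Over all genes tested 4.77% were lower at 8 h and 7.29% at 16 h. Of the 67 higher genes, 18 were called higher at 8 h and 6 at 16 h, beside 2 and 6 called lower, where 23.3% and 11.4% of all genes were higher. At 8 h the median over all genes stood at 0.23. It was −0.04 with median-centring and 0.38 when ERCC set the scale, and the 8 h values below are to be read against that shift. Fos reached 6.80 and 7.05 TPM at 8 h of Ex-4 and 28.6 and 26.9 TPM at 8 h of FSK. At 16 h it had 2.24 and 2.32 TPM with Ex-4 and 16.7 and 16.2 TPM with FSK. The level with Ex-4 at 16 h was thus near that of CON (2.16 and 1.91 TPM), and that with FSK was not. Fosl1 had 0.502 and 0.617 TPM at 8 h of Ex-4 but 28.7 and 28.8 TPM at 8 h of FSK, and its difference grew from −2.46 at 1 h to −4.25.

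Sik1 and Crem had larger differences later than at 1 h. Sik1 had a difference of −1.95 at both later times, and Crem −1.43 at 8 h and −2.02 at 16 h. Txnip stayed low with FSK, at 2.32 and 1.99 TPM at 8 h against 47.3 and 45.0 TPM with Ex-4, a difference of 3.90. Pde10a, not called at 1 h, was lower with Ex-4 at 8 h (−1.14) and 16 h (−1.08), and Pde4b changed its sign, from 0.92 at 1 h to −0.87 at 8 h and −0.85 at 16 h. Klf6 had a difference of 0.11 at 8 h and −0.62 at 16 h. Npas4, Btg2 and Cxcl1 were not called at either later time, with differences between −0.47 and 0.15 on the log2(TPM + 1) scale.

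**Figure D5:**
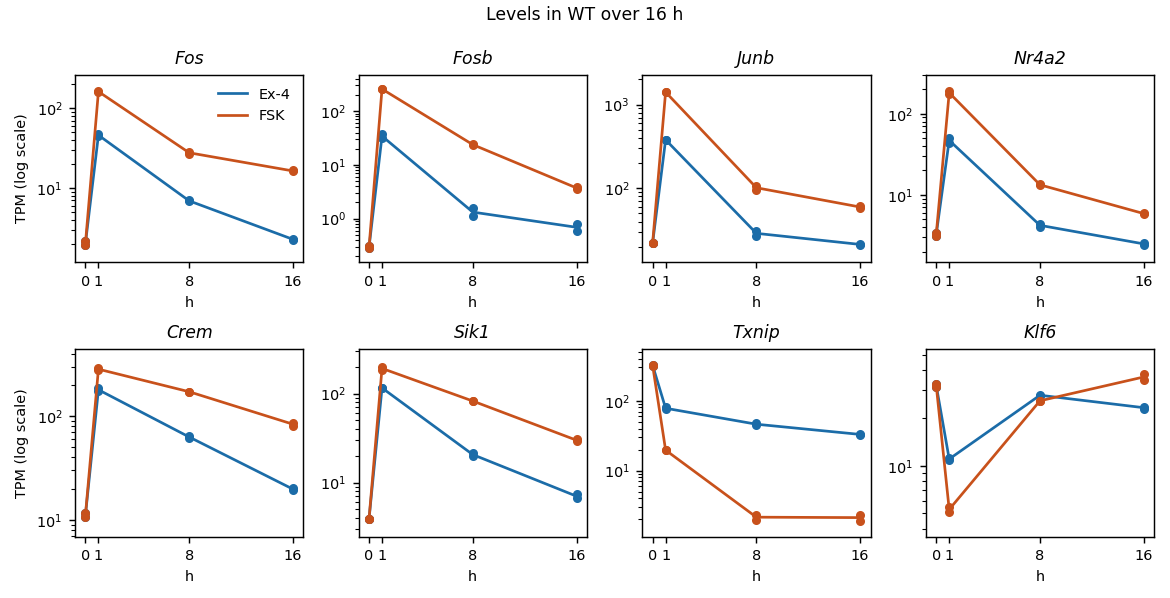
TPM (vertical axes, log scale) of 8 genes in WT, untreated (plotted at 0 h) and after 1, 8 and 16 h of Ex-4 (blue) or FSK (orange); points are libraries and lines join the group means. FSK stays above Ex-4 at 8 and 16 h in Fos, Fosb, Junb, Nr4a2, Crem and Sik1 and below it in Txnip, while the lines of Klf6 cross.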

How the data were processed

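RNA-seq of INS-1 cells, WT or Med14 S983A, was analysed from deposited tables. Per the study's methods and the submitters' processing notes, the authors aligned reads to rn6 with ERCC sequences (STAR 2.5.3a) and computed TPM with HOMER 4.11.1. The deposited count table holds the authors' counts of 92 ERCC sequences, and the table's Length column is the exon length in bases. Per the file headers HOMER was run with a strand option whose setting could not be read, so overlapping and antisense genes remain uncertain.

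The table had 19223 lines. The transcript with the highest mean TPM was kept per symbol (1676 dropped, 17455 symbols), and 10275 genes that averaged 1 TPM or more across 28 libraries were tested. Values were fitted as log2(TPM + 1) with limma 3.58.1 (R 4.3.3), with a mean for each of 14 groups, 14 residual degrees of freedom and eBayes with trend. Log2 differences therefore understate the change of low genes, and a gap between genotypes can be overstated where a gene is low in 1 of them. Tests were two-sided, with Benjamini-Hochberg adjustment over 10275 genes, and SE and 95% intervals come from the same fit. Adjusted p-values in the text are limma's unless another tool is named. The study's test needs gene counts. Fragments were therefore recovered from TPM and length, scaled to the ERCC counts, and whole numbers came out for 100.0% of the 124685 values checked (up to 1000 reads, tolerance 0.05 reads added to the rounding error), against 22.7% by chance. These went into edgeR 4.0.16 (234 genes called) and DESeq2 1.42.0 (229 genes called). The test was checked on simulated data.

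Genes and gene lists were chosen with earlier results of these data known. Named are the 12 called genes with the largest positive and the 12 with the largest negative difference (mean of at least 5 TPM, no overlap), the called members of 18 lists, 12 genes that the study names, and the 2 most abundant members of lists without a call. Alternatives were a pseudocount of 0.1, other filters, median-centring, ERCC scaling, fewer libraries, a replicate block, no fold minimum, summed transcripts and both count tools. Precision is limited by 2 libraries per group, each with 43140960 to 55285755 fragments in the main comparison.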

Additional observations from a re-analysis of the deposited data

Results flagged for a closer look

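The difference between Ex-4 and FSK at 1 h itself differed between WT and Med14 S983A in 44 of 10275 genes (0.428%) by the interaction term of limma at 1.5-fold, and 1009 genes had an unadjusted p under 0.05. Of the 44, 22 were also called between the agents in WT, and in 12 of those the difference was larger in Med14 S983A with the same sign. The balance of the 44, 25 above and 19 below 0, became 8 and 129 with ERCC scaling and 31 and 14 after median-centring. The genes of the report among them are given as the WT minus the Med14 S983A difference on the log2 scale.

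In 5 genes the difference between the agents was more negative in WT. Npas4 had −2.10 (adjusted p 1.5e-10) and in Med14 S983A stood at 0.836 and 1.07 TPM with Ex-4 and 1.15 and 0.924 TPM with FSK, where WT had reached 9.60 and 9.45 TPM with FSK. Cxcl1 had −2.03 (adjusted p 9.0e-09), with 2.35 and 1.80 TPM in Med14 S983A with FSK against 31.4 and 31.1 TPM in WT. With Ex-4 it had 0.373 and 0.403 TPM in Med14 S983A. The FSK mean of Cxcl1 was 12.1 times its Ex-4 mean in WT and 5.35 times in Med14 S983A. At these low levels the value of Cxcl1 on the log2(TPM + 1) scale overstates the gap between the genotypes. For Npas4 and Nfkbiz the gap was instead larger by DESeq2 with ERCC size factors, at −2.93 and −1.68. Arc had −1.85 (adjusted p 9.7e-11), with 7.15 and 8.02 TPM in Med14 S983A with FSK against 10.6 and 11.9 TPM in its CON. Nfkbiz had −0.90 and Gem −0.64.

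In 6 genes the difference was larger in size in Med14 S983A. Cebpb had 0.95, Junb 0.93 (adjusted p 3.2e-05), Csrnp1 0.87, Gadd45b 0.69, Nr4a3 0.63 and Rgs2 0.61. With ERCC scaling Gadd45b (0.43), Nr4a3 (0.37) and Rgs2 (0.34) were no longer called, and Cebpb (0.69), Junb (0.66) and Csrnp1 (0.61) were. By DESeq2 with ERCC size factors Cebpb (0.74, adjusted p 0.0825) was not called either. Of the genes more negative in WT, Arc (−2.19) and Gem (−0.86) were called by that tool. Npas4 (−2.93), Cxcl1 (−1.42) and Nfkbiz (−1.68) received no adjusted p there, so it gave no call for them. All 11 genes were called after median-centring. Junb reached 133 and 170 TPM with Ex-4 and 1094 and 1039 TPM with FSK in Med14 S983A. Both its levels with Ex-4 lay under the WT levels of 380.4 and 379.8 TPM.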

How the results depend on the processing

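The 184 calls between the agents in WT kept their sign under every alternative in which the gene was tested, and 156 to 184 of them were called again. The number of higher genes moved to 117 with a pseudocount of 0.1, and without a fold minimum 1029 were higher and 339 lower. It was 49 after median-centring and 53 with ERCC scaling, with 131 lower genes under either. Leaving out 1 library gave 58 to 84 higher and 117 to 120 lower genes.

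In Med14 S983A, 249 genes were higher with the pseudocount of 0.1, 93 after median-centring, 432 with ERCC scaling and 652 by DESeq2 with ERCC size factors. The interaction was called for 137 genes with ERCC scaling and 82 by DESeq2 with ERCC size factors. Leaving out 1 library gave 131 to 186 higher and 146 to 185 lower genes in Med14 S983A and 34 to 57 genes in the interaction.

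Of genes lowered by both agents in Med14 S983A, the number higher in WT was 49 with the pseudocount of 0.1, 13 after median-centring, and 36 by edgeR and by DESeq2 with ERCC size factors, and 18 to 26 with 1 library left out. The number lower in WT was 1 with ERCC scaling, by DESeq2 with ERCC size factors and without replicate 1 of WT Ex-4, and 0 without any other library. Their median was 0.43 at a 5 TPM filter, 0.32 under either other scaling, and 0.31 to 0.42 with 1 library left out. Of genes raised by both, 82 to 89 were lower in WT with 1 library left out. The number higher was 2 with the pseudocount of 0.1, and 1 by edgeR, by DESeq2, with its ERCC size factors and without replicate 1 of WT FSK, and 0 without any other library. Their median was −0.54 at a 5 TPM filter, −0.58 with ERCC scaling, −0.47 by DESeq2, −0.59 with its ERCC size factors, and −0.54 to −0.49 with 1 library left out.

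Counts of higher genes called again in other libraries, under alternatives added after seeing the data, were 96 in Med14 S983A, 33 at 8 h and 10 at 16 h with the pseudocount of 0.1, 6 at 8 h after median-centring, and 83 in Med14 S983A and 36 at 8 h by DESeq2 with ERCC size factors. Lower genes called again at 8 h numbered 110 by edgeR and by DESeq2. With 1 library left out the higher genes called again numbered 43 to 67, 15 to 19 and 6 to 8, and the lower genes 98 to 102, 67 to 74 and 62 to 70, in Med14 S983A, at 8 h and at 16 h.

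Of 1241 values of 78 named genes, 1199 kept their call and 31 changed sign, none in a called gene. With median-centring, ERCC scaling, edgeR, DESeq2 and DESeq2 with ERCC size factors, in this order, Med14 had −0.0248, −0.0215, −0.0194, −0.0165 and −0.003, Gnas −0.0292, −0.0286, −0.0262, −0.0231 and −0.0112, Gnai2 −0.0408, −0.0401, −0.0372, −0.0341 and −0.0218, Cacnb3 −0.0302, −0.0296, −0.0262, −0.0232 and −0.0108, and Fdps −0.0511, −0.0503, −0.0477, −0.0446 and −0.0323. With 1 library left out, the ranges were −0.0296 to 0.0121 for Glp1r, −0.0289 to 0.101 for Med14, −0.0623 to 0.0044 for Ins1, −0.002 to 0.0657 for Gnas, −0.0308 to 0.0004 for Atp2a2 and −0.0059 to 0.0674 for Cacnb3. The causes of these moves were not tested.

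The replicate numbers did not pair the libraries (correlation of same-numbered deviations 0.06 between Ex-4 and FSK). With the replicate block 67 genes were higher and 117 lower, as without it, and the interaction was called for 43 genes. With 2 libraries per group, a library that departs from its partner cannot be told from the rest, and differences near 1.5-fold in genes under 5 TPM depend on the pseudocount and on the scaling.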
